A study of Mus musculus with 54 samples.

Results

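The Schlafen family is a group of related mouse genes on chromosome 11, named after the German word for sleeping because forced expression of the first members slowed the growth of thymocytes. The 7 members described here, Slfn1, Slfn2, Slfn3, Slfn4, Slfn5, Slfn8 and Slfn9, were chosen by gene symbol, as the listed Schlafen genes that have a row in the deposited expression table. All 7 of the 7 listed genes had a row, out of 13611 genes in the table, and all 54 libraries were used. The table holds 2 further Schlafen rows, Slfn10-ps and Slfn14, which were not listed and are not among the members. The family was proposed with earlier results of these data known, and no threshold on a measured value entered the choice of members. The adjusted p-values below therefore come from fits across all genes and describe these libraries.

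Schlafen proteins share a core domain at their amino-terminal end that resembles nucleases, and the family is divided by length into short, intermediate and long members. The short and intermediate members have been studied in mice mainly as regulators of T cell quiescence and of myeloid cell activation, and the long members carry an additional helicase-like region. Several members are induced by type I interferon, and the human long member SLFN11, related to mouse Slfn8 and Slfn9, cleaves transfer RNAs and blocks stressed replication forks after DNA damage.

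The study followed messenger RNA after gamma irradiation at 10 Gy in whole organs of C57B6 mice and in NIH3T3 cells, an established mouse embryonic fibroblast line. Small intestine, large intestine, spleen and thymus each gave 10 libraries, sampled unirradiated (0 h), hourly at 1 to 8 h and at 24 h. NIH3T3 cells gave 14 libraries, sampled unirradiated, hourly at 1 to 12 h and at 24 h. The mice carried no engineered allele according to the labels, which give neither age nor sex nor how many animals stand behind a library.

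Each hour is 1 library, so neighbouring hours served as the replicates of a window (1 to 2 h, 3 to 5 h, 6 to 8 h and, in NIH3T3, 9 to 12 h). The spread between libraries thus includes the change over the hours of a window, and 0 h and 24 h are single libraries. Levels are FPKM, fragment counts scaled for transcript length and for the library's mapped fragments, as deposited. Changes are differences of log2(FPKM + 1), which understate the change of genes near 0, and were tested with limma over genes averaging at least 1 FPKM in the organ. The 4 organs were fitted together, so each gene had 1 estimate of spread shared by the organs. An SE or p-value of 1 organ thus also carries the spread of the others. The number of fragments behind each library is not known from the table. Low FPKM values gave only a rough relative depth, by which the deepest library exceeded the shallowest by 1.87-fold in small intestine and by 4.14-fold in thymus. The shallowest thymus library by this measure was the 8 h one, at 0.246 of the depth of the 0 h library, with the next lowest at 0.564.

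Some libraries held transcripts of a neighbouring organ. The 24 h thymus library summed to 10475 FPKM over 10 small intestine enterocyte markers, against 7.64 to 34.5 FPKM in the other 9 thymus libraries. The 6 h spleen library summed to 56129 FPKM over the exocrine pancreas markers, and the 2 h large intestine library to 38348 FPKM over the enterocyte markers. Organ identity otherwise followed the labels. The enterocyte markers summed to at least 87813 FPKM in small intestine, the colon epithelium markers to at least 13336 FPKM in large intestine and the fibroblast markers to at least 951 FPKM in NIH3T3. T cell markers summed to 418 to 3258 FPKM in thymus, and B cell markers to 332 to 2674 FPKM in spleen. In these bulk samples, fewer cells of a type and less RNA per cell cannot be told apart. T cell markers in thymus and B cell markers in spleen fell over the hours, from their highest sums at 0 h to their lowest at 24 h.

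All 7 members lie within 264 kb of chromosome 11 (GRCm38.p6, the same assembly as the mm10 build of the processing notes). Slfn5 (chr11:82951349-82964850, plus strand) stands at one end, followed by Slfn9 (chr11:82974316-82991830, minus strand) and Slfn8 (chr11:83002125-83020810, minus strand). Slfn2 (chr11:83065112-83070678), Slfn1 (chr11:83116820-83122670), Slfn4 (chr11:83175172-83190216) and Slfn3 (chr11:83191330-83215154) follow on the plus strand. The longest annotated coding sequences held 337 codons in Slfn1 and 378 in Slfn2, 640 in Slfn3 and 602 in Slfn4, 884 in Slfn5, and 910 each in Slfn8 and Slfn9. A pair of long and a pair of intermediate members were near-identical. Aligned coding bases were 92.7% identical between Slfn8 and Slfn9 and 92.1% identical between Slfn3 and Slfn4. Other members of the same length class were less alike, at 70.3% between Slfn1 and Slfn2 and 60.3% between Slfn5 and Slfn9, and the short Slfn1 was 70.9% identical to the intermediate Slfn3.

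Reads of close members can be split between them, and the handling of multi-mapping reads is unknown here. Of all 50-base windows in the annotated transcripts, 14.6% of Slfn8, 11.2% of Slfn9, 8.15% of Slfn4, 7.39% of Slfn3 and 4.27% of Slfn2 also occurred unchanged in another family gene. That share was 0.606% for Slfn1 and 0% for Slfn5. Slfn8 and Slfn9 shared most with Slfn10-ps, a pseudogene that also had a row in the table. Slfn10-ps had 1.11 to 2.44 FPKM at 1 to 8 h and 0.110 FPKM at 0 h in spleen, and 1.38 to 8.01 FPKM at 1 to 8 h and 2.12 FPKM at 0 h in thymus. The libraries were made without strand information, and 559 exonic bases of Slfn5 (8.84%) overlap the antisense gene Slfn5os, so reads of that stretch cannot be told apart.

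The promoter of Slfn4 is shown because Slfn4 had the largest change after irradiation, and those of the long members because they hold a motif found in many interferon-regulated promoters. The sequences are 300 bases from RefSeq (GRCm38.p6), 250 before and 50 after the RefSeq start site, written 5′ to 3′ on the gene's strand. Capitals mark the interferon regulatory factor core GAAANNGAAA or, on the other strand, TTTCNNTTTC.
Slfn4, chr11:83174936-83175235, plus strand: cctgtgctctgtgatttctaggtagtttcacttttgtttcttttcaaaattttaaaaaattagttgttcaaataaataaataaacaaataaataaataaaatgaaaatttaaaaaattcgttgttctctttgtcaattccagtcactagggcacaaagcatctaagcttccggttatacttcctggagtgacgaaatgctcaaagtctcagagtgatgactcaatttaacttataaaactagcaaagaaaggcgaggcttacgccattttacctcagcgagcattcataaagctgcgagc
Slfn5, chr11:82951852-82952151, plus strand: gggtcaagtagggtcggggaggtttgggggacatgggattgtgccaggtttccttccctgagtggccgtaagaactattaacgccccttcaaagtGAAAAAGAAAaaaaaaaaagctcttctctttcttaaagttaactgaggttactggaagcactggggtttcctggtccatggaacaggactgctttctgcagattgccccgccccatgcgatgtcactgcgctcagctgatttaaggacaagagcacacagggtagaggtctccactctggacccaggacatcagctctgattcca
Slfn8, chr11:83020761-83021060, minus strand: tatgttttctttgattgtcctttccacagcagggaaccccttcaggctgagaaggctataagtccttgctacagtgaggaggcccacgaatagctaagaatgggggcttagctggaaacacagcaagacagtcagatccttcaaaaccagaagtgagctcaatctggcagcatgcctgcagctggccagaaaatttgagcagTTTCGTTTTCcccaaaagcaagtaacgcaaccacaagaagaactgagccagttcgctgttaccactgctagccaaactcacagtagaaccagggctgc
Slfn9, chr11:82991781-82992080, minus strand: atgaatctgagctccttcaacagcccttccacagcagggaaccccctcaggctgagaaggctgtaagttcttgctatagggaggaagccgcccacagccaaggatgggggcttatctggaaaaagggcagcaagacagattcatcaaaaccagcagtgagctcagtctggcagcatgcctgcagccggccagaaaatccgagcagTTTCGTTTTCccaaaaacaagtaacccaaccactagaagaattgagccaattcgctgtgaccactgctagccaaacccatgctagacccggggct

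The motif occurred in the promoters of 3 of the 7 members, Slfn5, Slfn8 and Slfn9, which are the 3 long ones among these 7. Both strands were searched. Of 27025 mouse genes 3.99% held it in a promoter of the same length, as did 3.44% of 32851 promoters. Its first base lay 155 bases before the start site in Slfn5, within a run of A bases, 48 bases before it in Slfn8 and 45 bases before it in Slfn9. The promoter of a second Slfn8 start site covers the same genomic match. The Slfn5 window lies within the Slfn5 interval given above, which begins at 82951349, so the start site used there is not at the gene's outer end. The letters TTCNNNGAA, the binding sequence of STAT dimers, were in none of the member promoters and in 8.30% of all promoters. A search for the p53 half-site, RRRCWWGYYY, found no match in a member promoter, where 8.36% of all promoters had one. The NF-kB motif matched in Slfn1 and Slfn9, beside 5.14% of all genes and 4.51% of all promoters. A match is a description of these letters, and its absence says only that they are not in this window.

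The family's transcripts were most abundant in the lymphoid organs, except those of Slfn4, which overlapped between organs, and of Slfn9, which was highest in the fibroblast line. All 7 members averaged at least 1 FPKM in spleen and in thymus, 5 did so in small intestine, 4 in large intestine and 2 in NIH3T3. Only these passed the filter and were tested. The unlisted Slfn14 had 2.50 FPKM at 0 h, 1.25 to 11.5 FPKM at 1 to 8 h and 0.682 FPKM at 24 h in spleen, and is not counted here.

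Over the 8 libraries at 1 to 8 h, Slfn2, which is needed for T cell quiescence and protects transfer RNAs from cleavage in mouse T cells, had the highest level of the family in spleen and thymus. Slfn2 averaged 212 ± 22.6 FPKM in spleen, 168 ± 45.8 in thymus, 25.5 ± 7.97 in small intestine, 4.89 ± 3.74 in large intestine and 1.59 ± 0.577 in NIH3T3 (SD, n = 8 each). The ranges of spleen and thymus overlapped, as did those of large intestine and NIH3T3, and the other neighbours in that order did not. Slfn1 averaged 52.2 ± 25.5 FPKM in spleen and 51.6 ± 29.9 FPKM in thymus (SD, n = 8 each), with overlapping ranges. Slfn1 did not exceed 1.58 FPKM in any small intestine library or 0.408 FPKM in any large intestine library, and it was listed at 0 in all 14 NIH3T3 libraries.

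Slfn5 and Slfn8 had the same order of organs. Slfn5 averaged 48.3 ± 18.2 FPKM in spleen, 36.8 ± 28.4 in thymus, 2.56 ± 0.986 in small intestine and 1.28 ± 0.426 in large intestine (SD, n = 8 each). Slfn8 averaged 27.7 ± 6.21 FPKM in spleen, 26.7 ± 17.4 in thymus, 1.09 ± 0.493 in small intestine and 0.396 ± 0.165 in large intestine (SD, n = 8 each). For both genes the ranges overlapped between spleen and thymus and between the intestines, but not between thymus and small intestine. In NIH3T3, Slfn5 was listed above 0 in 1 of 14 libraries and Slfn8 did not exceed 0.203 FPKM.

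The intermediate members and Slfn9 had other orders. Slfn3, studied in rodents for its part in intestinal epithelial differentiation, was a thymus gene here: it averaged 8.32 ± 4.59 FPKM in thymus and 2.48 ± 0.777 FPKM in spleen (SD, n = 8 each), without overlap, and did not exceed 0.657 FPKM in either intestine. Slfn4, a myeloid gene induced during macrophage activation, was the only member with more than 5 FPKM in all 10 large intestine libraries. It averaged 22.0 ± 8.71 FPKM there and 3.27 ± 0.779 FPKM in small intestine (SD, n = 8 each). Slfn9 averaged 11.1 ± 2.20 FPKM in NIH3T3 (SD, n = 8), each above every organ library at 1 to 8 h, and 2.18 to 4.17 FPKM on average in the 4 organs.

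**Figure D1:**
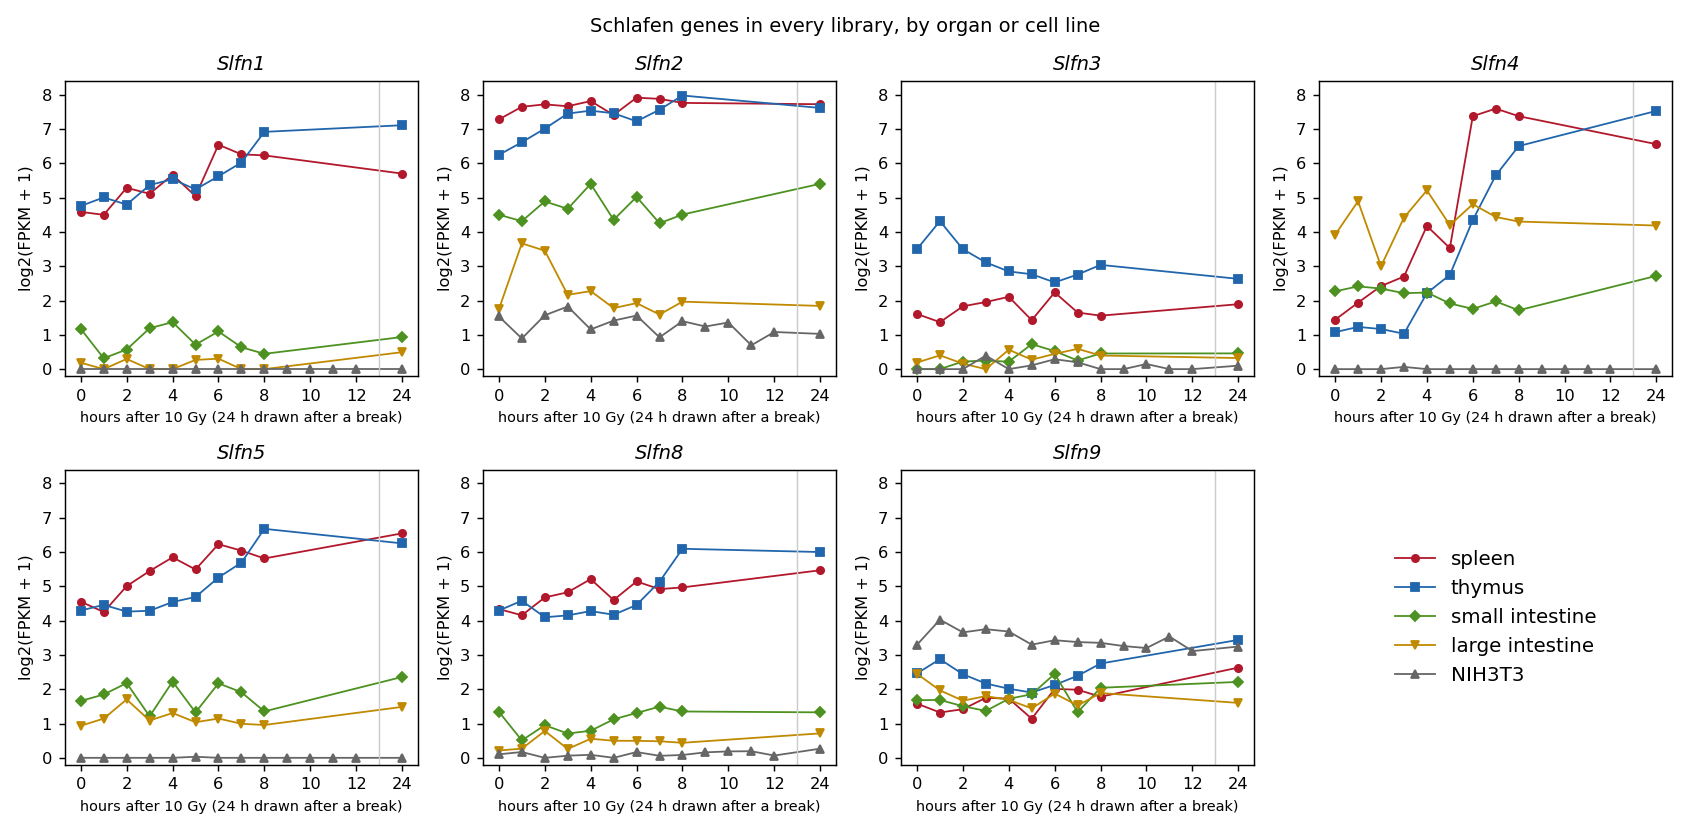
Log2(FPKM + 1) of each Schlafen gene (1 panel a gene) against hours after 10 Gy, with 1 point per library and lines joining the libraries of an organ or of NIH3T3. Spleen and thymus lie above the intestines for Slfn1, Slfn2, Slfn5 and Slfn8, Slfn4 climbs in spleen and thymus after 3 h to 192 and 184 FPKM, and NIH3T3 is the upper line only for Slfn9, from 0 to 8 h.

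Slfn4 changed most. In spleen it had 1.71 FPKM at 0 h, then 2.83, 4.36, 5.50, 17.0, 10.6, 165, 192 and 165 FPKM at 1 to 8 h, and 93.3 FPKM at 24 h. In thymus it had 1.11 FPKM at 0 h, then 1.35, 1.25, 1.04, 3.65, 5.72, 19.3, 49.2 and 89.8 FPKM at 1 to 8 h, and 184 FPKM at 24 h. All 8 irradiated spleen libraries at 1 to 8 h lay above the 0 h library, and 7 of 8 did in thymus. Spleen stepped up between 5 and 6 h, whereas thymus climbed at every hour from 4 h on.

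Against the 0 h library, Slfn4 rose over 1 to 8 h by 3.20 ± 0.61 on the log2 scale in spleen (SE, limma adjusted p = 0.00169) and by 2.03 ± 0.62 in thymus (SE, limma adjusted p = 0.0311). The thymus call was lost without the 7 h library (1.67, limma adjusted p = 0.107), without the 8 h library (1.55, limma adjusted p = 0.0917) and in a fit of thymus alone (limma adjusted p = 0.113). With windows of 1 to 4 h and 5 to 8 h, both calls were lost, at limma adjusted p = 0.0741 in spleen and 0.246 in thymus. The changes themselves were the same, and with these windows 4.66% of all genes were called in spleen and 6.77% in thymus. In the main fit of this comparison Slfn4 was the only 1 of 7 members called in spleen, where 8.68% of all genes were called. Slfn4 and Slfn2 were the 2 of 7 called in thymus, where 12.2% of all genes were called. The members' median change was 0.47 in spleen and 0.69 in thymus, beside 0.02 over all tested genes in each organ.

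Slfn4 was also higher at the later than at the earlier hours after irradiation. In spleen it averaged 174 ± 15.8 FPKM at 6 to 8 h (SD, n = 3) and 8.06 ± 5.80 FPKM at 1 to 5 h (SD, n = 5), a 21.6-fold ratio of means and a log2 change of 4.50 ± 0.42 (SE, limma adjusted p = 7.72e-08). In thymus it averaged 52.8 ± 35.3 FPKM at 6 to 8 h (SD, n = 3) and 2.60 ± 2.04 FPKM at 1 to 5 h (SD, n = 5), a 20.3-fold ratio and a log2 change of 3.82 ± 0.42 (SE, limma adjusted p = 6.26e-07). All 3 later libraries lay above all 5 earlier ones in both organs. By size of change Slfn4 was the gene ranked 17 in spleen and 2 in thymus among all genes tested. Both calls held under each other setting tried and with each library left out in turn, with log2 changes of 3.66 to 4.80 in spleen and 3.32 to 4.40 in thymus.

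Markers of myeloid cells rose in the same hours. Summed over 8 neutrophil genes, spleen had 8858 to 13143 FPKM at 6 to 8 h and 616 to 1429.5 FPKM at 1 to 5 h, and thymus had 586 to 1851 FPKM at 6 to 8 h and 152 to 344 FPKM at 1 to 5 h. Of these genes, 4 of 8 rose in spleen and 6 of 8 in thymus by limma, with median log2 changes of 2.54 and 1.67. Among all genes tested between these windows, 1834 of 11791 rose in spleen and 2318 of 12426 in thymus. Summed over 12 macrophage and monocyte genes, spleen had 3781 to 4461 FPKM at 6 to 8 h and 2385 to 4136 FPKM at 1 to 5 h, and thymus had 1344 to 1571 FPKM at 6 to 8 h and 710.5 to 1272 FPKM at 1 to 5 h. In each organ 7 of these 12 genes rose, with median log2 changes of 0.47 in spleen and 0.46 in thymus. None of the neutrophil or macrophage genes in the table was at 0 in any spleen or thymus library. At 24 h the neutrophil sums were 1742 FPKM in spleen and 279.6 FPKM in thymus, while Slfn4 stood at 93.3 and 184 FPKM and the macrophage sums at 7716 and 2835 FPKM. The part of these cells in the Slfn4 values was not tested.

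**Figure D2:**
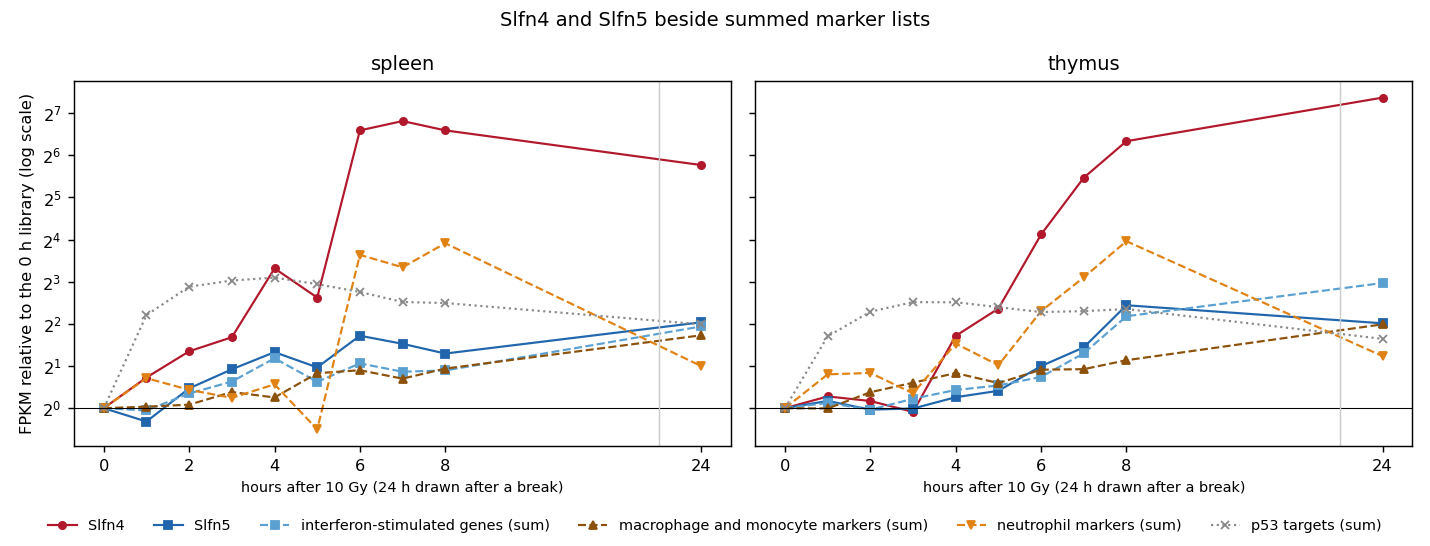
FPKM relative to the organ's own 0 h library (log scale) against hours after 10 Gy for Slfn4, Slfn5 and the summed marker lists in spleen and thymus, 1 library per point. Slfn4 rises above every list from 6 h on, the neutrophil sum rises at 6 to 8 h and is lower at 24 h, and the p53 target sum is high from 1 h.

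Both short members rose in thymus, in different comparisons, and Slfn1 also rose in spleen. Slfn1, whose forced expression arrests thymocyte growth, had 23.0 FPKM at 0 h in spleen, then 21.6, 38.0, 33.6, 49.7, 32.0, 92.3, 75.7 and 74.2 FPKM at 1 to 8 h and 51.0 FPKM at 24 h. In thymus it had 26.1 FPKM at 0 h, then 31.1, 26.8, 40.2, 45.4, 36.8, 48.3, 64.1 and 119.9 FPKM at 1 to 8 h and 137 FPKM at 24 h. In both organs all 3 libraries at 6 to 8 h exceeded all 5 at 1 to 5 h. Slfn1 averaged 80.7 ± 10.1 FPKM at 6 to 8 h (SD, n = 3) and 35.0 ± 10.2 FPKM at 1 to 5 h (SD, n = 5) in spleen, a log2 change of 1.22 ± 0.23 (SE, limma adjusted p = 0.00048). In thymus it averaged 77.4 ± 37.6 FPKM at 6 to 8 h (SD, n = 3) and 36.1 ± 7.35 FPKM at 1 to 5 h (SD, n = 5), a log2 change of 1.00 ± 0.23 (SE, limma adjusted p = 0.00188). With a pseudocount of 0.1 these calls were lost, with changes of 1.25 in spleen (limma adjusted p = 0.0526) and 1.02 in thymus (limma adjusted p = 0.107). The thymus call was also lost between 5 to 8 h and 1 to 4 h (limma adjusted p = 0.0632). Without the 8 h library the thymus change was 0.63 (limma adjusted p = 0.0424). Against 0 h, the change over 1 to 8 h was 1.00 ± 0.33 in spleen (SE, limma adjusted p = 0.0646) and 0.81 ± 0.34 in thymus (SE, limma adjusted p = 0.123). The spleen value passed the threshold without the 1 h (limma adjusted p = 0.0211), the 2 h (0.0405) or the 5 h library (0.0494).

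Slfn2 rose early in thymus. It had 75.0 FPKM at 0 h there, then 97.0, 128, 174, 185, 175, 149, 188 and 251 FPKM at 1 to 8 h and 195 FPKM at 24 h. All 8 libraries at 1 to 8 h lay above the 0 h library, and the level stood at 174 FPKM at 3 h, when Slfn4 was at 1.04 FPKM. The change over 1 to 8 h against 0 h was 1.11 ± 0.30 on the log2 scale (SE, limma adjusted p = 0.0158). It held without each library in turn. It was lost with windows of 1 to 4 h and 5 to 8 h (limma adjusted p = 0.0952), with which 6.77% of all genes were called. In spleen, Slfn2 had 169 to 240.3 FPKM at 1 to 8 h, all above the 155 FPKM at 0 h, with a change of 0.45 ± 0.30 (SE, limma adjusted p = 0.397). Between 6 to 8 h and 1 to 5 h it changed by 0.20 ± 0.20 in spleen (SE, limma adjusted p = 0.492) and by 0.37 ± 0.21 in thymus (SE, limma adjusted p = 0.170).

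Slfn3 ran the other way in thymus. It had 10.3 FPKM at 0 h, then 18.9, 10.3, 7.64, 6.20, 5.81, 4.77, 5.77 and 7.22 FPKM at 1 to 8 h and 5.20 FPKM at 24 h, so that 7 of the 8 libraries at 1 to 8 h lay below 0 h. It averaged 5.92 ± 1.23 FPKM at 6 to 8 h (SD, n = 3) and 9.77 ± 5.40 FPKM at 1 to 5 h (SD, n = 5), a fall of 0.53 ± 0.20 on the log2 scale at a limma adjusted p of 0.0473. The windows overlapped, and the call depended on single libraries. Without the 1 h library the change was -0.28 (limma adjusted p = 0.313), and it was also lost without the 2 h (0.0685), the 6 h (0.191) or the 7 h library (0.108), with a pseudocount of 0.1 (0.37), with no filter on low values (0.0505) and in a fit of thymus alone (0.0778). Summed T cell markers in thymus fell in the same hours, to 1362 to 1669.6 FPKM at 6 to 8 h against 2235 to 2943 FPKM at 1 to 5 h. Of 11 tested T cell genes 6 fell, beside 1674 of all 12426 genes tested. The part of this in the Slfn3 values was not tested. In spleen Slfn3 stayed between 1.58 and 3.72 FPKM, with a change of 0.08 ± 0.20 between these windows (SE, limma adjusted p = 0.813).

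The long members Slfn5 and Slfn8 rose late in thymus. The interferon regulatory factor core is in their promoters above and also in that of Slfn9, which was not called there. Slfn1 and Slfn4, whose promoter windows hold no such core, also rose in thymus between 6 to 8 h and 1 to 5 h. The part of the motif in these values was not tested. Slfn5 had 18.6 FPKM at 0 h in thymus, then 21.0, 18.2, 18.5, 22.3, 24.8, 37.2, 50.7 and 101 FPKM at 1 to 8 h and 75.3 FPKM at 24 h. Slfn8 had 18.6 FPKM at 0 h there, then 22.9, 16.1, 16.8, 18.4, 17.0, 21.0, 34.2 and 67.4 FPKM at 1 to 8 h and 63.0 FPKM at 24 h. Both stayed near their 0 h level through 4 h and were highest at 8 h and 24 h. Slfn5 averaged 63.1 ± 33.8 FPKM at 6 to 8 h (SD, n = 3) and 21.0 ± 2.75 FPKM at 1 to 5 h (SD, n = 5), a log2 change of 1.43 ± 0.26 (SE, limma adjusted p = 0.000208), and all 3 later libraries exceeded the earlier 5. Slfn8 averaged 40.8 ± 23.9 FPKM at 6 to 8 h (SD, n = 3) and 18.3 ± 2.74 FPKM at 1 to 5 h (SD, n = 5), a log2 change of 0.97 ± 0.23 (SE, limma adjusted p = 0.00258), with 2 of 3 later libraries above the earlier 5. The Slfn8 call was lost without the 8 h library (0.54, limma adjusted p = 0.0568), while Slfn5 still rose without it (1.03, limma adjusted p = 0.00573). That library, the shallowest of the organ, held the highest level at 1 to 8 h of Slfn1, Slfn2, Slfn4, Slfn5 and Slfn8, and the part of depth in these values was not tested.

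In spleen Slfn5 rose and Slfn8 was not called. Slfn5 had 22.5 FPKM at 0 h in spleen, then 18.1, 31.1, 42.6, 56.5, 44.0, 74.0, 64.8 and 55.2 FPKM at 1 to 8 h and 92.3 FPKM at 24 h. Slfn8 had 19.2 FPKM at 0 h, then 16.8, 24.6, 27.4, 36.0, 23.3, 34.3, 29.2 and 30.3 FPKM at 1 to 8 h and 43.3 FPKM at 24 h. Between 6 to 8 h and 1 to 5 h Slfn5 rose by 0.82 ± 0.26 on the log2 scale (SE, limma adjusted p = 0.0221), and the windows overlapped. The Slfn5 call was lost without the 1 h (0.58, limma adjusted p = 0.112), the 6 h (0.72, 0.0952) or the 7 h library (0.81, 0.062), with a pseudocount of 0.1 (0.058) and between 5 to 8 h and 1 to 4 h (0.0685). Slfn8 changed by 0.32 ± 0.23 (SE, limma adjusted p = 0.328).

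Slfn9, which shares 92.7% of its coding bases with Slfn8, was not called in spleen or thymus. In thymus it had 4.51 FPKM at 0 h, then 6.34, 4.42, 3.49, 3.04, 2.74, 3.36, 4.25 and 5.73 FPKM at 1 to 8 h and 9.84 FPKM at 24 h, a dip with its lowest point at 5 h. The change between 6 to 8 h and 1 to 5 h was 0.14 ± 0.20 in thymus (SE, limma adjusted p = 0.631). In spleen it had 2.44 to 3.03 FPKM at 6 to 8 h and 1.205 to 2.36 FPKM at 1 to 5 h, without overlap, and the change of 0.45 ± 0.20 did not pass the threshold (SE, limma adjusted p = 0.0954).

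Against 0 h, none of the other 4 members was called over 1 to 8 h by limma. The change of Slfn5 was 0.96 in spleen (adjusted p = 0.117; without the 1 h library 1.14, 0.0485) and 0.69 in thymus (adjusted p = 0.265). Slfn8 changed by 0.47 in spleen (adjusted p = 0.437) and 0.33 in thymus (adjusted p = 0.597). Slfn3 changed by 0.16 in spleen and -0.39 in thymus, and Slfn9 by 0.06 in spleen and -0.13 in thymus, with adjusted p of 0.439 to 0.935.

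In all, 3 of 7 members were called in spleen between 6 to 8 h and 1 to 5 h, all higher at 6 to 8 h, where 27.8% of all genes were called in either direction. In thymus 4 rose and 1 fell, where 32.1% of all genes were called. Leaving out the libraries with transcripts of another organ left 2 called in spleen (beside 24.1% of all genes) and 5 in thymus (beside 35.5%). In thymus that library is the 24 h one, which is in neither window, so the count there is no check of its effect. The members' median log2 change was 0.45 in spleen, beside 0.02 over all tested genes, and 0.97 in thymus, beside 0.00.

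**Figure D3:**
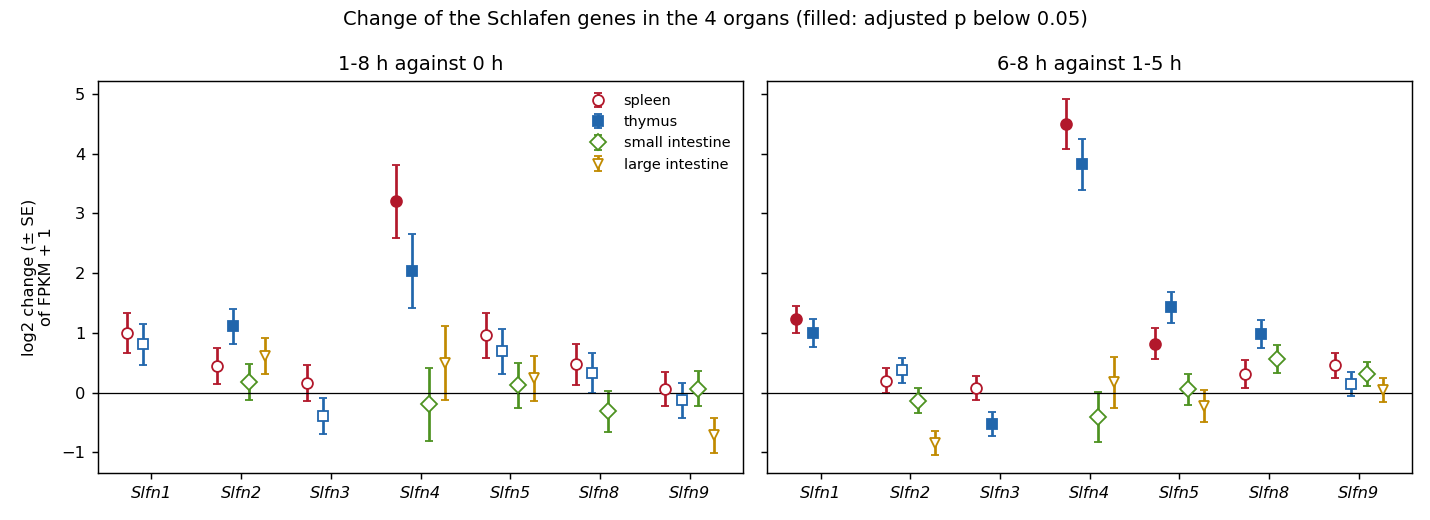
Log2 change of FPKM + 1 with its SE for each Schlafen gene in the 4 organs, for 1 to 8 h against 0 h (left) and 6 to 8 h against 1 to 5 h (right). Filled symbols have a limma adjusted p below 0.05. Slfn4 in spleen (4.50) and thymus (3.82) stands above the other members on the right, and no intestine symbol is filled.

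Interferon-stimulated genes, a list of 30 that holds no Schlafen gene, rose in thymus at the same hours as Slfn1, Slfn4, Slfn5 and Slfn8. Any link between the list and these members was not tested. The list summed to 1266 to 3435 FPKM at 6 to 8 h and 738 to 1099.8 FPKM at 1 to 5 h in thymus. In spleen it summed to 1546 to 1773 FPKM at 6 to 8 h and 817 to 1929 FPKM at 1 to 5 h. In thymus 26 of 30 rose between these windows and none fell, with a median log2 change of 1.12, where 18.7% of all genes rose. The highest changes there were those of Rsad2, which blocks viral budding (2.43 ± 0.51, SE, limma adjusted p = 0.000754), and Cmpk2, a mitochondrial nucleotide kinase (1.93 ± 0.45, SE, limma adjusted p = 0.00179). The lowest were those of Isg20 (0.08 ± 0.31, SE, limma adjusted p = 0.884) and Herc6 (0.49 ± 0.25, SE, limma adjusted p = 0.135).

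In spleen 6 of the 30 rose and none fell, with a median of 0.49, where 15.6% of all genes rose. The oligoadenylate synthetase gene Oas3 (1.56 ± 0.40, SE, limma adjusted p = 0.00556) and its relative Oasl2 (1.46 ± 0.24, SE, limma adjusted p = 0.000111) had the highest changes. Cxcl10 (-0.73 ± 0.32, SE, limma adjusted p = 0.0963) and Isg20 (-0.30 ± 0.31, SE, limma adjusted p = 0.507) had the lowest. Over 1 to 8 h against 0 h only Mx1 of the 30 passed in spleen (2.41 ± 0.52, SE, limma adjusted p = 0.00476) and only Cxcl10 in thymus (2.16 ± 0.47, SE, limma adjusted p = 0.00367). In that comparison 8.68% of all genes were called in spleen and 12.2% in thymus. Of the interferon receptor genes, 5 were tested in spleen and 6 in thymus. The receptor subunit Il10rb rose in thymus between 6 to 8 h and 1 to 5 h (0.61 ± 0.09, SE, limma adjusted p = 3.24e-05), and no other was called in either organ. The listed ligand genes Ifna1, Ifna2, Ifna4, Ifnb1, Ifng, Ifnl2 and Ifnl3 had no row in the expression table, and no interferon ligand gene was analysed here.

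The 12 p53 targets, genes that p53 activates after DNA breaks, were high from the first hours: their sum was 230.2 FPKM at 0 h, 1065 FPKM at 1 h, 1879 FPKM at 3 h and 1298 FPKM at 8 h in spleen, and 302, 983, 1726 and 1540.5 FPKM at the same hours in thymus. Over 1 to 8 h against 0 h all 12 p53 targets rose in spleen and in thymus, with median log2 changes of 2.84 and 2.54. Of all genes, 8.68% were called in spleen and 12.2% in thymus there, in either direction. Between 6 to 8 h and 1 to 5 h, 3 fell and none rose in spleen, and 2 rose and 1 fell in thymus. The NF-kB and inflammatory list differed between the organs at these hours: all 10 genes rose in thymus, with a median of 1.18, while 1 rose and 6 fell in spleen, with a median of -0.65. At these hours 18.7% of all genes rose and 13.5% fell in thymus, and 15.6% rose and 12.3% fell in spleen. Of 15 interferon signalling genes, 8 rose and none fell in thymus, and 1 rose and 1 fell in spleen. Of 10 regulators of T cell quiescence, 4 rose in thymus and 3 fell in spleen, and none of 8 glucocorticoid response genes was called in either organ.

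The genes most like each member were read from the 40 organ libraries, as the Pearson correlation of log2(FPKM + 1) after centring on each organ's mean, over 13333 genes. The libraries share organs and hours, so these values are a description. Slfn5 was most like Ifih1 (0.90), Mnda (0.88) and Oas2 (0.88), and Slfn8 was most like Cmpk2 (0.88), Ddx58 (0.87) and Ifit3 (0.85). Slfn4 was most like Cd63, Mmp3 (0.93 each) and Gpnmb (0.92), and Slfn1 was most like Slfn4 (0.85), Tlr13 (0.85) and Ms4a6d (0.84). For the other members the closest gene was less alike: Slfn2 reached 0.71 with Birc2, 0.71 with Cxcl16 and 0.70 with Clca3a2. Slfn3 reached 0.71 with Rnf168, 0.70 with Casp8ap2 and 0.70 with Rbmx2. Slfn9 reached 0.73 with Pde8b, 0.72 with Tctex1d2 and 0.72 with Msantd4. Within the family, the values were 0.82 between Slfn5 and Slfn8 and between Slfn5 and Slfn4, 0.55 between the close relatives Slfn8 and Slfn9, and -0.24 between the close relatives Slfn3 and Slfn4.

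The make-up of the family's transcripts differed between the hours. The 7 genes summed to 225 FPKM at 0 h in spleen, to 262 to 613 FPKM at 1 to 8 h and to 498 FPKM at 24 h. In thymus they summed to 154 FPKM at 0 h, to 199 to 642 FPKM at 1 to 8 h and to 669 FPKM at 24 h. Slfn2 made up 68.7% of the sum at 0 h, 76.2% at 1 h, 39.6% at 8 h and 42.2% at 24 h in spleen. In thymus its share was 48.6% at 0 h, 66.5% at 3 h, 65.3% at 5 h, 52.6% at 6 h, 39.1% at 8 h and 29.2% at 24 h, so that it was highest in the middle hours. Slfn4 made up 0.760% at 0 h, 30.3% at 8 h and 18.7% at 24 h in spleen, and 0.720%, 13.97% and 27.4% at the same hours in thymus.

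**Figure D4:**
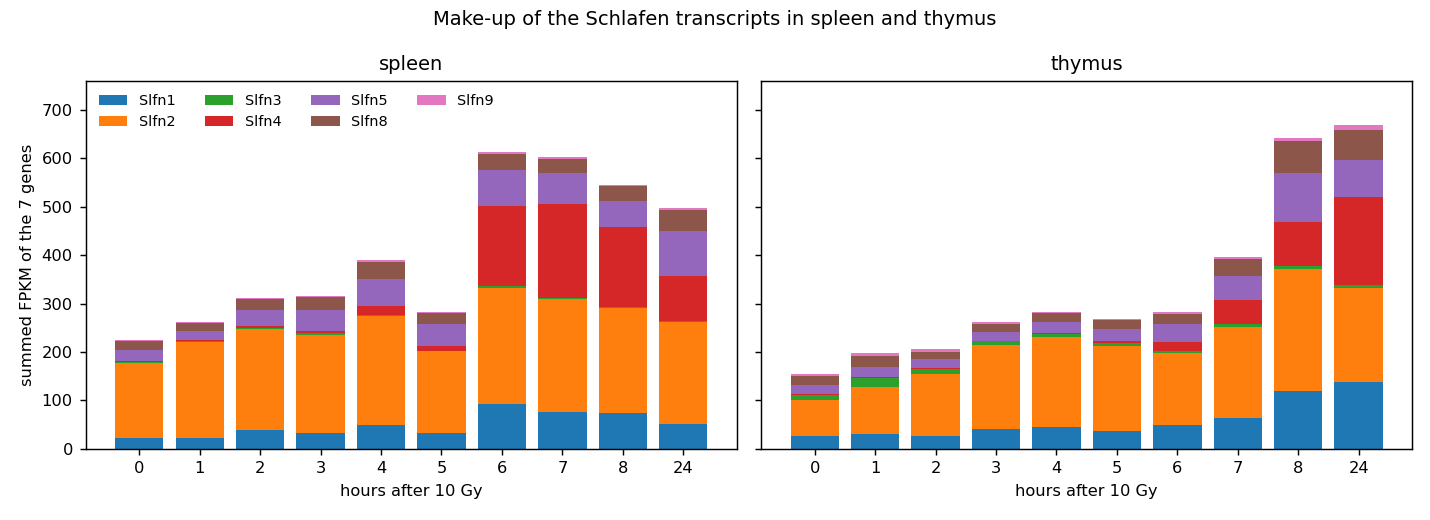
Summed FPKM of the 7 Schlafen genes in each spleen and thymus library, by hours after 10 Gy, with 1 colour per gene. Slfn2 is the largest part of each bar at 0 h, and Slfn4 appears as a visible part from 4 h in spleen and from 6 h in thymus.

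In the intestines no member passed the test. No member was called over 1 to 8 h against 0 h in small intestine (0 of 5 tested, limma, beside 0.316% of all genes) or in large intestine (0 of 4, beside 1.48%). At an unadjusted p under 0.05, a limit for which the share of all genes is not given, the counts were 0 in small intestine and 1, Slfn9, in large intestine. Between 6 to 8 h and 1 to 5 h the counts were again 0 of 5 in small intestine (limma, beside 0.518% of all genes) and 0 of 4 in large intestine (beside 0.498%), and 1 member in each, Slfn8 in small intestine and Slfn2 in large intestine, had an unadjusted p under 0.05.

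Slfn4 in small intestine had 2.29 to 2.92 FPKM at 6 to 8 h and 2.77 to 4.33 FPKM at 1 to 5 h, a change of -0.41 ± 0.42 (SE, limma adjusted p = 0.755), and it had 3.82 FPKM at 0 h. This SE rests on the spread of Slfn4 shared over the 4 organs and was 0.42 in each of them. In large intestine Slfn4 had 14.1 FPKM at 0 h, then 28.8, 6.99, 20.3, 36.1, 17.3, 27.0, 20.7 and 18.7 FPKM at 1 to 8 h and 17.2 FPKM at 24 h. Its lowest level was at 2 h and its highest at 4 h. Its change over 1 to 8 h was 0.49 ± 0.62 there (SE, limma adjusted p = 0.789). The summed neutrophil genes were 405 FPKM in the 1 h large intestine library and 47.2 FPKM at 7 h, and at most 8.003 FPKM in the other 8, and their part in the Slfn4 values was not tested.

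Slfn2 was the member that set large intestine libraries apart. It had 11.7 and 9.95 FPKM at 1 and 2 h and 2.01 to 3.84 FPKM in the other 8 libraries. The 1 h library had the lowest summed colon epithelium markers of the organ (13336 FPKM), and the 2 h library is the one with enterocyte transcripts. The change between 6 to 8 h and 1 to 5 h was -0.84 ± 0.21 (SE, limma adjusted p = 0.0622), while without the 1 h and 2 h libraries, a choice made after seeing the data, it was -0.25 (limma adjusted p = 0.812). It passed the threshold without the 3 h (limma adjusted p = 0.0311), the 4 h (0.0366) or the 5 h library (0.00993) and after quantile normalization (0.0409). Slfn9 in large intestine had 1.72 to 2.91 FPKM at 1 to 8 h, all 8 below the 4.46 FPKM at 0 h, a change of -0.72 ± 0.29 (SE, limma adjusted p = 0.262). In small intestine, Slfn8 had 1.48 to 1.81 FPKM at 6 to 8 h and 0.423 to 1.18 FPKM at 1 to 5 h, without overlap, a change of 0.57 ± 0.23 (SE, limma adjusted p = 0.322).

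The difference between the organs was tested directly. The change of Slfn4 over 1 to 8 h was larger in spleen and thymus than in the intestines by 2.47 ± 0.61 on the log2 scale (SE, limma adjusted p = 0.0276). It was the only 1 of the 4 members tested in all 4 organs to pass, where 3.02% of all genes were called. The call was lost when 1 of 4 libraries was left out, the 6 h (limma adjusted p = 0.056), 7 h (0.058) or 8 h spleen library (0.0529) or the 7 h thymus library (0.0567), with differences of 2.26 to 2.29. With windows of 1 to 4 h and 5 to 8 h it was also lost, at a limma adjusted p of 0.271, and 0.331% of all genes were called. Between spleen and thymus no member's change over 1 to 8 h differed by limma (0 of 7, beside 0.385% of all genes). At an unadjusted p under 0.05 the count was also 0, and the share of all genes at that limit is not given. The largest difference between spleen and thymus was that of Slfn4, 1.17 ± 0.86 higher in spleen (SE, limma adjusted p = 0.696).

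In NIH3T3 fibroblasts 1 member, Slfn9, was at more than a few FPKM, and it was lower at 9 to 12 h than at 1 to 5 h. Its highest levels were at 1 to 4 h, and it was already at 8.85 FPKM at 5 h. Slfn9 had 8.83 FPKM at 0 h, then 15.3, 11.6, 12.5, 11.8, 8.85, 9.77, 9.38, 9.22, 8.57, 8.20, 10.6 and 7.65 FPKM at 1 to 12 h and 8.48 FPKM at 24 h. All 8 libraries at 1 to 8 h exceeded 0 h, the first by most, with a change of 0.27 ± 0.18 (SE, limma adjusted p = 0.367). Slfn9 averaged 8.76 ± 1.29 FPKM at 9 to 12 h (SD, n = 4) and 12.02 ± 2.31 FPKM at 1 to 5 h (SD, n = 5), a fall of 0.41 ± 0.11 on the log2 scale at a limma adjusted p of 0.0317. This call was lost when the 1 h (-0.32, limma adjusted p = 0.0927), 3 h, 4 h, 9 h, 10 h or 12 h library was left out. Slfn2 had 0.619 to 2.55 FPKM over the 14 libraries and was not called. Of the 2 members tested, none was called over 1 to 8 h against 0 h (beside 4.47% of all genes) or between 6 to 8 h and 1 to 5 h (beside 2.3%). At an unadjusted p under 0.05 the counts were 0 and 1 (Slfn9), and the share of all genes at that limit is not given. Between 9 to 12 h and 1 to 5 h, 1 was called (beside 13.6%).

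At 24 h the lymphoid levels were above those of the unirradiated library for most members. With 1 library on each side there is no replicate check, and a log2 difference of at least 1 was used as a descriptive limit. In spleen 5 of 7 members passed it (beside 19.6% of all genes): Slfn4 by 5.12, Slfn5 by 1.99, Slfn8 by 1.13, Slfn1 by 1.12 and Slfn9 by 1.05. In thymus, where the median over all genes was 0.15, 5 of 7 passed it (beside 35.4%): Slfn4 by 6.45, Slfn1 by 2.35, Slfn5 by 1.96, Slfn8 by 1.71 and Slfn2 by 1.37. Just inside and just outside the limit lay Slfn9, at 1.05 in spleen and 0.97 in thymus. Slfn3 in thymus was the only member lower at 24 h in either organ, by -0.87.

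The 24 h thymus library is the one with small intestine transcripts. In the small intestine itself at 24 h, Slfn4 had 5.59, Slfn1 0.913, Slfn5 4.13 and Slfn8 1.51 FPKM, below the 184, 137, 75.3 and 63.0 FPKM of the 24 h thymus library. Slfn2, which also passed the limit in thymus, had 41.3 FPKM in small intestine and 195 FPKM in thymus at 24 h. The part of small intestine transcripts in the thymus values was not tested. Summed T cell markers in that thymus library were 418 FPKM, against 3258 FPKM at 0 h. No member passed the limit in small intestine (0 of 5, beside 3.39% of all genes), large intestine (0 of 4, beside 4.28%) or NIH3T3 (0 of 2, beside 2.73%). The difference nearest to it there was that of Slfn2 in small intestine, with 41.3 FPKM at 24 h and 21.7 FPKM at 0 h, 0.90 on the log2 scale.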

How the data were processed

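RNA of 40 mouse organ libraries and 14 NIH3T3 libraries was polyA-selected and sequenced from non-directional libraries, per the labels' protocols. The authors deposited FPKM values for 13611 genes. Reads were processed with TopHat2 2.1.0 and Cufflinks 2.1.1 on mm10, per the submitters' processing notes. How multi-mapping reads were treated is not given in those notes or labels.

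From the deposited FPKM, log2(FPKM + 1) was computed and fitted with limma 3.58.1 (R 4.3.3) with a trended prior, 1 fit for the 40 organ libraries and 1 for NIH3T3. P-values were two-sided and adjusted by Benjamini-Hochberg over genes with a mean of at least 1 FPKM in the organ or cell line, with a threshold of 0.05. The 1 to 8 h value is the mean over libraries of the windows against the 0 h library, whose own spread is assumed to equal that of the windows. Whether the libraries of a window came from different mice or dishes is not stated in the labels. The p-values thus reflect library-to-library spread alone, which may be partly technical. The number of libraries and an unknown depth limit the precision.

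The members and gene lists were chosen with earlier results of these data known. All members are named. Of the other genes, the 3 most correlated with each member, the 2 highest and 2 lowest interferon-stimulated genes, and any called interferon receptor are named. Promoter sequences are from RefSeq (GRCm38.p6), and all 7 members were matched by symbol. The fit was also run on simulated data with independent noise and a constant added change. Those data held no drift within a window, so they cannot show how drift affects the p-values. Alternatives were the pseudocount (0.1), filter, scaling, windows, prior, a fit per organ, the hour as a block, a 2-fold threshold and leaving out libraries.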

Additional observations from a re-analysis of the deposited data

Results flagged for a closer look

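The change of Slfn4 over 1 to 8 h against 0 h differed between the organs in a direct test: it was larger by 2.47 ± 0.61 on the log2 scale in spleen and thymus than in the intestines (SE, limma adjusted p = 0.0276). It was not called without the 6 h, 7 h or 8 h spleen library or the 7 h thymus library (limma adjusted p = 0.0529 to 0.058), or with windows of 1 to 4 h and 5 to 8 h (0.271). With those windows 0.331% of all genes were called.

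Slfn3 in the NIH3T3 libraries at 9 to 12 h had 1 library apart from the others, at 0.109 FPKM, with the other 3 listed at 0. This level is below the filter, and Slfn3 was not tested in NIH3T3.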

How the results depend on the processing

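No result changed direction in a called value. The number of Schlafen genes called moved by more than 1.5 times, or to or from 0, as follows, and the cause was not tested. With windows of 1 to 4 h and 5 to 8 h it was 0 in spleen and 0 in thymus over 1 to 8 h (beside 4.66% and 6.77% of all genes). It was 1 in large intestine and 1 in NIH3T3 for the later hours (beside 1.32% and 3.68%) and 0 for spleen and thymus minus intestines (beside 0.331%). In the main fit these shares were 8.68%, 12.2%, 0.498%, 2.3% and 3.02%, in the same order. With a pseudocount of 0.1 the number of Schlafen genes was 1 in spleen and 3 in thymus at 6 to 8 h (beside 23.1% and 27.3% of all genes), and 1 in large intestine at 24 h. A 2-fold threshold left 2 in thymus at 6 to 8 h (beside 7.56%) and 0 in NIH3T3 at 9 to 12 h (beside 0.106%). No filter left 0 in NIH3T3 at 9 to 12 h (beside 9.86%). A separate fit left 1 in thymus over 1 to 8 h (beside 11.4%), and quantile normalization gave 1 in large intestine at 6 to 8 h (beside 0.489%). Smaller moves at 6 to 8 h were to 4 in thymus with no filter (beside 29.3%), a separate fit (34.1%), those windows (26.8%) or the replicate block (32.7%). In spleen they were to 2 with those windows (beside 30.7%), a 2-fold threshold (4.36%) or without the libraries holding transcripts of another organ (24.1%). At 24 h the number was 4 in spleen with median-ratio scaling and 6 in thymus with a pseudocount of 0.1. Shares of all genes are not given for these 24 h counts or for the counts with 1 library left out. Leaving out 1 library gave 1 to 3 in spleen and 1 to 2 in thymus over 1 to 8 h, 2 to 3 in spleen, 4 to 5 in thymus and 0 to 1 in large intestine at 6 to 8 h, 0 to 1 in NIH3T3 at 9 to 12 h and 0 to 1 for spleen and thymus minus intestines.

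Of 48 correlations of same-hour deviations between organs, 5 exceeded 0.1, with a median of 0.0408. The highest were between spleen and thymus, at 0.324 at 3 h and 0.302 at 5 h. The others above 0.1 were all at 5 h, between the intestines (0.148) and between large intestine and spleen (0.183) or thymus (0.149). Values were repeated within the earliest window, so the 48 are not all separate. A low median therefore cannot show that the hours do not pair the organs. With the hour as a replicate block, 1 Schlafen gene was called in large intestine at 6 to 8 h, Slfn2 (-0.84, limma adjusted p = 0.0483), beside 0.422% of all genes. With that block Slfn3 in thymus was not called (-0.53, limma adjusted p = 0.0749), where 32.7% of all genes were. An unknown depth limits what can be said of members under 1 FPKM.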
